A study of Rattus norvegicus with 12 samples.

Results

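The genes described here are 32 symbols of myelin and of the oligodendrocyte lineage, chosen by name and not by their values, and followed in RNA-seq of rat hippocampus and colon. The hippocampus table listed 31 of the 32 among 14266 genes, and the colon table held 20 of them among 14803 genes. All 20 members of the colon table were also in the hippocampus table. Trf was under that symbol in neither table; the RefSeq gene table gives Trf as a synonym both of the transferrin gene Tf and of Trh, so it was not counted as a member.

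Oligodendrocytes wrap axons of the central nervous system in myelin, a stack of membrane rich in cholesterol and galactolipids and held together by a small set of abundant proteins. They arise from dividing precursors that carry the PDGF receptor alpha and the transcription factors Olig1, Olig2, Sox10 and Nkx2-2. These pass through a short committed stage marked by Gpr17, Bcas1 and Enpp6, after which Myrf and Nkx6-2 accompany the start of the myelin genes. In the newborn brain much of the lineage is still immature, and hypoxia-ischemia is known as an insult to it. The gut has no oligodendrocytes, but its enteric glia use Sox10 and other lineage genes, and other members, such as Pdgfra in fibroblasts, serve other cells of the gut wall.

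Rats with hypoxic-ischemic brain damage (HI) gave 3 hippocampus and 3 colon libraries, and sham rats gave 3 hippocampus and 3 colon libraries. The title of the series speaks of newborn rats; the labels read here leave out strain, sex, age at sampling, time after the insult and the side of the brain taken, and name no transgene, drug or other agent for any group. The labels do not say that replicates came from separate animals, so the p-values measure only the spread between these libraries. Values were deposited as FPKM, a read count scaled to transcript length and library size, so levels can be compared between genes of 1 table; the read depth is unknown, so no counting interval is given.

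Some libraries stood apart. Markers of the choroid plexus, the epithelium that secretes cerebrospinal fluid, summed to 4352 FPKM in the HI 1 hippocampus library, against 2.14 to 22.8 FPKM in the other 5. The 3 listed genes of the Y chromosome were at 8.18 to 30.4 FPKM in HI 1 and at no more than 0.0959 FPKM in the other 5 hippocampus libraries. In the colon they were at no more than 0.202 FPKM in sham 1 and at 10.6 FPKM or more in the other 5. The colon table names 2 sham columns alike, and these are called sham 3a and sham 3b. As a check of the tissue label, neuronal markers summed to 2947, 3318 and 3232 FPKM in HI 1 to HI 3 and to 3413, 3432 and 3345 FPKM in sham 1 to sham 3.

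In the hippocampus, 0 of the 30 members tested differed between HI and sham past an adjusted p of 0.05 (limma with Benjamini-Hochberg adjustment over all genes tested). Across all 13181 genes tested, 0.00759% passed. At an unadjusted p under 0.05 there were 2 members, Olig2 and Sox10, against a background of 6.62% in either direction and 3.45% higher in HI. By mean, 28 of the 30 were higher in HI, where 49.5% of all genes were, but the libraries of each group spread widely and the groups overlapped for 29 of the 30. The median difference of the members was 0.28 on the log2(FPKM + 1) scale, and that of all genes was -0.0015. The members' median was 0.18 without HI 1. Hapln2 then no longer reached the filter, 24 members were higher in HI, and Apod, Gpr17, Gpr37, Cntn2 and Nkx2-2 were lower. In bulk tissue, fewer cells of a type and less RNA per cell cannot be told apart.

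The members varied mainly between libraries of the same group, and by median mature genes varied more than precursor genes. HI 1 was the highest of the 6 libraries for 27 of the 31 members, HI 2 the lowest HI library for 30, and sham 3 the highest sham library for 29. Over all genes tested these shares were 23.6%, 33.6% and 37.4%. The highest library exceeded the lowest more than 2-fold for 15 of the 31 members and for 7.48% of all genes. The median of this highest-over-lowest ratio was 2.30 for the 14 structural myelin genes, 2.24 for the 6 genes of the lipid and metabolic group, 1.69 for the 3 genes of the committed stage, 1.40 for the 5 lineage factors and 1.27 for all genes. The lipid and metabolic group includes the receptor gene Gpr37.

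**Figure D1:**
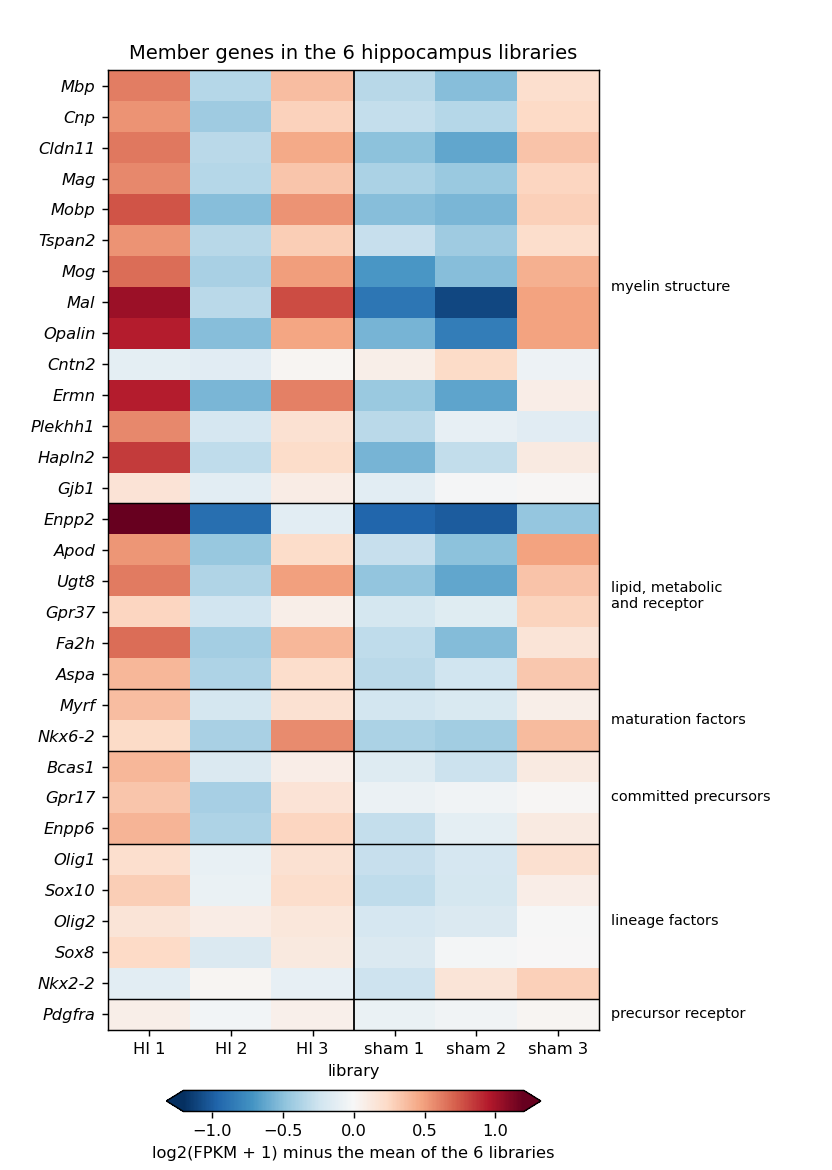
Each row is 1 of the 31 members in the hippocampus, grouped by role, and each column 1 library, with the 3 HI libraries left of the 3 sham libraries. Colour is log2(FPKM + 1) minus the mean of the 6 libraries of that gene, and colours saturate at the ends of the scale. Most structural genes are high in HI 1, HI 3 and sham 3 and low in HI 2, sham 1 and sham 2; Cntn2 and Plekhh1 are not in that order, and the row of Pdgfra is nearly flat.

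The promoters of 4 mature genes that hold the motif known for Myrf are shown, with those of the mature gene Fa2h and the precursor gene Pdgfra, which do not hold it. These genes were picked for display, and other precursor genes, such as Olig2, do hold the motif. The promoters are RefSeq sequences of the rat assembly GRCr8, from 250 bases before to 50 bases after the annotated start, read 5′ to 3′ on the strand of the gene. Capitals mark CTGGCAC, or its variant CTGGTAC, on either strand, the core of that motif. All 6 genes lie on the minus strand: Mag at chr1:95290995-95291294, Mal at chr3:135341374-135341673, Opalin at chr1:249858141-249858440, Hapln2 at chr2:175794389-175794688, Fa2h at chr19:56273431-56273730 and Pdgfra at chr14:33408467-33408766.
Mag: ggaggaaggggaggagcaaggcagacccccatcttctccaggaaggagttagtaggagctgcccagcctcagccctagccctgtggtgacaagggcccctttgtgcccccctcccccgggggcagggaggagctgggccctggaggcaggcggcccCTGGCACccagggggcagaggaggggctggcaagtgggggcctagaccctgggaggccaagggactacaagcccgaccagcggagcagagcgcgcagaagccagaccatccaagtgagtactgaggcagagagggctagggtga
Mal: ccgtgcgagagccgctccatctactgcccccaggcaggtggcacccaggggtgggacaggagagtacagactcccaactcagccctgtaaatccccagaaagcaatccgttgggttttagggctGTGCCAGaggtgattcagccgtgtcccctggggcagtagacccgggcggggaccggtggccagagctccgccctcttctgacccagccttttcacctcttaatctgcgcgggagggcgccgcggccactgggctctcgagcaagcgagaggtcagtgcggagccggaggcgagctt
Opalin: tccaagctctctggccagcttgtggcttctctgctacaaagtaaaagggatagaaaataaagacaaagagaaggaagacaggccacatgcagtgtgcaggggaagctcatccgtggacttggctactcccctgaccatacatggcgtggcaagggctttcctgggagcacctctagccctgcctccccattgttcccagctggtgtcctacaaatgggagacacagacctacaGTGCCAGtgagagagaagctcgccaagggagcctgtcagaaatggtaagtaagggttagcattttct
Hapln2: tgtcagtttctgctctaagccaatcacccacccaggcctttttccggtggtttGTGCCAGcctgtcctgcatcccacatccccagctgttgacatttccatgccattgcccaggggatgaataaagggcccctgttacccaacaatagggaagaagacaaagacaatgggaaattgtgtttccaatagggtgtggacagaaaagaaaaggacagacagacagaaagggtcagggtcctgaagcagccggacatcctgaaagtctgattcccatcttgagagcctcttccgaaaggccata
Fa2h: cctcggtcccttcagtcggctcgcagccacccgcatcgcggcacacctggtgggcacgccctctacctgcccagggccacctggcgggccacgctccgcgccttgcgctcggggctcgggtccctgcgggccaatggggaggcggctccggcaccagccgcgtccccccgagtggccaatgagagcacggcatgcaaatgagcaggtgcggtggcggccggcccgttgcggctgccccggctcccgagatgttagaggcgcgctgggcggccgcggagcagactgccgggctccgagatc
Pdgfra: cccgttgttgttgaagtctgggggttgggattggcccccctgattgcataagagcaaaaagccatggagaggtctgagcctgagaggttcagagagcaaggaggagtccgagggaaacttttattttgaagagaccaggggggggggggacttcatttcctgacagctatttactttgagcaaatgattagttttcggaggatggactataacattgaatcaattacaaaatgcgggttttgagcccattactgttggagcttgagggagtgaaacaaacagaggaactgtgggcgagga

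Of the 32 symbols, 23 had a promoter in the RefSeq table. CTGGCAC stood on either strand in 7 of the 23 genes (Cnp, Enpp6, Hapln2, Mag, Mal, Olig2 and Opalin), or 30.4%, and in 4.75% of all 33469 windows of 300 bases. Of the 18 mature genes among them 5 held it. The committed gene Enpp6 and the lineage factor Olig2 held it too, so it did not separate mature from precursor genes. Hapln2, Mal and Opalin, whose highest library was 6.38-, 4.63- and 3.88-fold the lowest, held it. Mobp, Ugt8, Fa2h and Mbp, at 2.51-, 2.43-, 2.41- and 2.19-fold, lacked it, and Olig2, at 1.30-fold, held it. A link between the motif and the range was not tested. In Mag it began 94 bases before the start, in Mal 126, in Opalin 17 and in Hapln2 197. CTGGTAC was found in Cldn11 alone, and in 2.16% of all windows. Of the core letters bound by Sox factors, ACAAAG was in 8 of the 23 genes and 18.8% of windows, and ACAATG in 5 of the 23 and 13.2% of windows. CAGCTG, a core of the E-box that basic helix-loop-helix factors such as the Olig proteins can bind, was in 7 of the 23 and 15.1% of windows. All motifs were searched on both strands; CAGCTG reads the same on either, and overlapping matches of different motifs were each counted. A match describes these letters in this window and is not a site, and the motifs were picked by name, with earlier results of these data known.

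Among the structural genes, Mbp encodes myelin basic protein, which compacts the inner faces of the membrane, and was the most abundant member. It was at 1018, 523 and 858 FPKM in HI 1, HI 2 and HI 3, against 528, 465 and 762 FPKM in sham 1, sham 2 and sham 3. The HI mean was 800 ± 252 FPKM and the sham mean 585 ± 157 FPKM (SD, n = 3 each). HI 2 lay below sham 1 and sham 3, so the groups overlapped. The difference was 0.43 ± 0.25 (SE) on the log2 scale, with a 95% interval of -0.15 to 1.01 and an adjusted p of 0.767 in limma. Without HI 1 it was 0.23.

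Cnp, whose enzyme keeps cytoplasmic channels in myelin open, came next, with a mean over the 6 libraries of 252 FPKM. It was at 354, 182 and 297 FPKM in HI 1 to HI 3 and at 200, 193 and 288 FPKM in sham 1 to sham 3. HI 2 was the lowest library of all 6. Cldn11, which forms the tight junctions of myelin, and Mag, an adhesion protein of the membrane facing the axon, had means of 114 and 107 FPKM. These neighbours in the order of levels did not differ beyond their spread: Cldn11 was at 168, 86.3 and 148 FPKM in HI and at 76.4, 69.9 and 137 FPKM in sham.

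Mag was at 154, 81.2 and 131 FPKM in HI 1 to HI 3 and at 79.4, 75.7 and 124 FPKM in sham 1 to sham 3. Each group held low and high libraries, and the groups overlapped. The difference was 0.38 ± 0.25 on the log2 scale, with an adjusted p of 0.783 in limma. Mag and Mbp, on different chromosomes, thus had nearly the same order of libraries, in which HI 1, HI 3 and sham 3 were the highest.

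Mal, a small proteolipid that sorts membrane to myelin, had the widest range of the structural genes apart from the scarce Hapln2. It was at 52.5, 20 and 44.2 FPKM in HI 1 to HI 3, against 13.4, 11.3 and 35.9 FPKM in sham 1 to sham 3. The groups overlapped only because sham 3 lay above HI 2. The difference was 0.98 ± 0.45 (95% interval -0.06 to 2.03), with an adjusted p of 0.734 in limma, and ranged from 0.68 to 1.47 as each library was left out. Within the sham group alone, the highest library was 3.17-fold the lowest.

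The late markers Opalin and Ermn, a transmembrane protein and a cytoskeletal protein of mature oligodendrocytes, behaved alike. Opalin was at 19.6, 6.52 and 13.9 FPKM in HI and at 6.26, 5.04 and 13.9 FPKM in sham. Ermn was at 9.81, 2.86 and 7.58 FPKM in HI and at 3.15, 2.65 and 4.96 FPKM in sham. For both genes HI 2 lay among the sham libraries, and the differences of 0.61 ± 0.41 and 0.66 ± 0.36 did not pass. Hapln2, a link protein of the matrix around nodes of Ranvier, was scarce, at 2.81, 0.724 and 1.47 FPKM in HI and at 0.441, 0.727 and 1.28 FPKM in sham. Its 6.38-fold range over the 6 libraries therefore rests on low values.

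Mog, the surface protein of the outermost myelin layer, was at 53.2, 25.1 and 47.3 FPKM in HI and at 20.1, 22.9 and 44.96 FPKM in sham. Mobp, a myelin-associated basic protein, was at 92.3, 37.9 and 79.3 FPKM in HI and at 38.0, 36.8 and 66.5 FPKM in sham. In each, HI 2, sham 1 and sham 2 formed a low set and HI 1, HI 3 and sham 3 a high one. The tetraspanin gene Tspan2 had the same 3 high libraries, with a difference of 0.33 ± 0.23.

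Cntn2, a contactin of the juxtaparanodes that neurons also make, was the exception among the structural genes. It was at 9.66, 9.53 and 10.8 FPKM in HI and at 11.2, 12.6 and 10.1 FPKM in sham, a difference of -0.16 ± 0.09. Its highest library was sham 2, where most myelin genes were low. Gjb1, the connexin of myelin gap junctions, stayed below 1 FPKM in all 6 libraries and was not tested. Plekhh1, a gene with pleckstrin homology domains that is abundant in oligodendrocytes, was at 5.73, 2.92 and 4.10 FPKM in HI and at 2.61, 3.20 and 3.10 FPKM in sham.

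**Figure D2:**
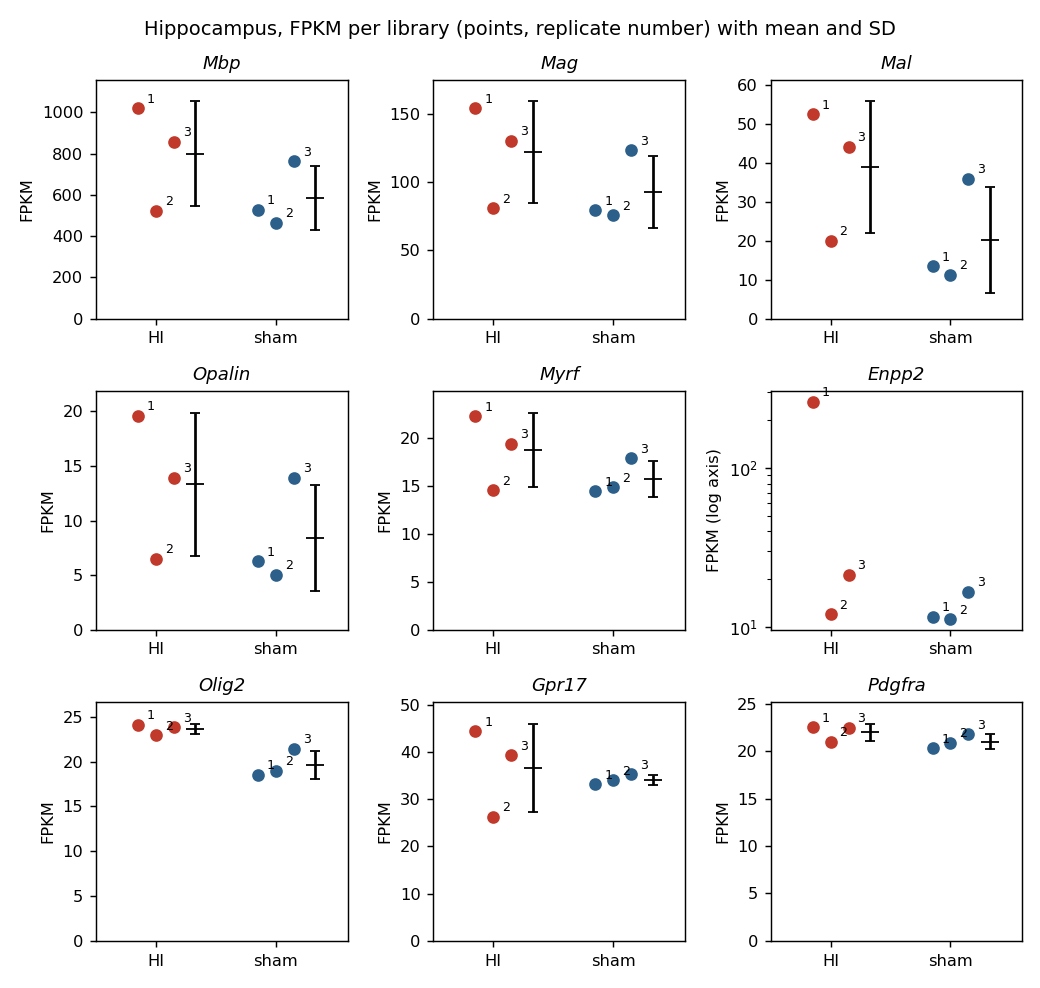
FPKM of selected members in the hippocampus, 1 panel per gene; each point is a library, HI left of sham, with the mean and SD of the 3 libraries beside them, except in the panel of Enpp2, which has a log axis and no mean. Mbp, Mag and Mal spread widely within both groups and overlap, Pdgfra stays near 21 FPKM in all 6 libraries, and the 3 HI libraries of Olig2 lie above the 3 sham libraries.

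Lipid and metabolic members included the enzymes that make the galactolipids of myelin. Ugt8, which makes galactosylceramide, was at 60.5, 30.2 and 55.1 FPKM in HI and at 27.9, 24.9 and 49.6 FPKM in sham. Fa2h, which hydroxylates the fatty acids of those lipids, was at 23.4, 10.6 and 19.2 FPKM in HI and at 11.4, 9.71 and 16.1 FPKM in sham. In both, HI 1, HI 3 and sham 3 were the 3 highest libraries, with differences of 0.50 ± 0.30 and 0.44 ± 0.27 and overlapping groups. Aspa, the aspartoacylase that frees acetate for lipid synthesis, differed by 0.16 ± 0.23. Apod, a lipid-binding apolipoprotein, differed by 0.20 ± 0.29, and Gpr37, a receptor of mature oligodendrocytes, by 0.06 ± 0.15.

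Enpp2, which encodes the secreted enzyme autotaxin, stood apart from the other members through a single library. It was at 262, 12.1 and 21.3 FPKM in HI 1 to HI 3, against 11.6, 11.2 and 16.7 FPKM in sham 1 to sham 3. The difference was 1.602 ± 0.94 with an adjusted p of 0.766 in limma, and 0.29 without HI 1. Choroid plexus epithelium also makes Enpp2. Of 8 markers of that tissue 7 were listed, and their summed level was 4352, 16.4 and 22.8 FPKM in HI and 2.14, 10.4 and 7.22 FPKM in sham. Ttr, the transthyretin gene, was at 4177 FPKM in HI 1 and at 0.391 to 18.2 FPKM in the others; Kl was listed at 0 in HI 2 and Clic6 at 0 in sham 1. With a score of these markers as a covariate, added after seeing the data, the difference of Enpp2 was -0.08. That score was 5.81 in HI 1 and 0.33 to 1.19 in the other hippocampus libraries. The covariate therefore mainly sets HI 1 apart and cannot tell choroid plexus from any other trait of that library.

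The choroid plexus sum was also highest in HI 1, the library highest in most members. Tf, the transferrin gene, which both oligodendrocytes and choroid plexus make, was at 109, 20.8 and 46.6 FPKM in HI and at 21.97, 20.5 and 39.5 FPKM in sham. With the choroid score as a covariate the members' median difference was 0.11, against 0.28 without it, and 0 members passed. Then 21 of the 30 were higher in HI, and Enpp2, Cnp, Aspa, Apod, Enpp6, Gpr17 and Gpr37 had changed sign. Leaving HI 1 out instead gave a median of 0.18, and Apod, Gpr17 and Gpr37 were then the members that changed sign. As the score mainly marks HI 1, the values with the covariate do not single out choroid plexus. Ependymal markers summed to 55.9, 40.0 and 46.4 FPKM in HI and to 33.05, 39.8 and 38.4 FPKM in sham, and astrocyte markers to 1260, 1087 and 1215 FPKM in HI and to 1073, 1063 and 1149 FPKM in sham. Astrocyte sums were highest in HI 1, HI 3 and sham 3 and ependymal sums in HI 1 and HI 3, while neuronal sums were lower in all 3 HI libraries than in all 3 sham libraries and lowest in HI 1. Meningeal fibroblast markers, 7 of 8 listed, summed to 60.5, 59.9 and 74.1 FPKM in HI. In sham they summed to 81.9, 83.3 and 89.3 FPKM, without overlap. Of all single genes tested, 6.81% lay lower in HI without overlap. Within the meningeal list Dcn, Lum, Col1a1 and Col3a1 did so, while Slc6a13, Slc22a6 and Aldh1a2 overlapped. Markers of hippocampal neuron subfields, 6 of 10 listed, summed to 209, 175 and 199 FPKM in HI and to 182, 171 and 207 FPKM in sham. Like the astrocyte sums, these were highest in HI 1, HI 3 and sham 3. Of the 6 genes only Wfs1 had its highest 3 values in those libraries. It was at 97.0, 56.8 and 81.4 FPKM in HI and at 69.2, 45.6 and 86.2 FPKM in sham. Calb1 and Fibcd1 were lowest in HI 1, so the order of the sums rests on Wfs1. The part of these lists in the myelin values was not tested.

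Myrf, the factor that switches on myelin genes, was at 22.3, 14.5 and 19.4 FPKM in HI and at 14.4, 14.9 and 17.9 FPKM in sham. Nkx6-2, a homeobox factor of the same stage, was at 7.29, 4.40 and 9.47 FPKM in HI and at 4.43, 4.28 and 8.19 FPKM in sham. Each had its 3 highest values in HI 1, HI 3 and sham 3, like Mbp, and neither passed the test. For Nkx6-2 the highest library was HI 3 and not HI 1.

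At the committed stage, Gpr17, a receptor that is switched off before myelination, was at 44.4, 26.3 and 39.3 FPKM in HI and at 33.2, 34.0 and 35.3 FPKM in sham. Its sham libraries lay within 1.06-fold of each other and inside the HI range, and the difference was 0.07 ± 0.16. Bcas1, which marks newly forming oligodendrocytes, was at 107, 71.6 and 85.5 FPKM in HI and at 72.8, 67.5 and 87.5 FPKM in sham. Enpp6, a choline phosphodiesterase of the same stage, was at 9.65, 5.22 and 8.63 FPKM in HI and at 5.61, 6.41 and 7.68 FPKM in sham. In all 3 genes HI 2 was low within HI, and in Gpr17 and Enpp6 it was the lowest of the 6.

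Of all members the precursor gene Pdgfra was the steadiest. Not all precursor genes were steady: Nkx2-2 and Sox10 ranged 1.59- and 1.53-fold over the libraries, more than the mature gene Cntn2 at 1.32-fold. Pdgfra, the receptor that keeps precursors dividing, was at 22.5, 21.0 and 22.5 FPKM in HI and at 20.3, 20.9 and 21.8 FPKM in sham. Its highest library was 1.11-fold the lowest, and the difference was 0.06 ± 0.06 with a 95% interval of -0.08 to 0.21. All 6 libraries lay within 20.3 to 22.5 FPKM, and the groups overlapped.

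Olig2, the factor that specifies the lineage, was the 1 member whose groups did not overlap. It was at 24.1, 22.9 and 23.8 FPKM in HI, against 18.6, 19.0 and 21.4 FPKM in sham. All 3 HI libraries lay above all 3 sham libraries, as in 6.4% of all genes tested, and 0 members had all HI libraries below all sham libraries, as in 6.81% of all genes. The difference was 0.26 ± 0.07 (95% interval 0.09 to 0.42) with an adjusted p of 0.672 in limma, so it did not pass. Sox10, which acts at every stage of the lineage, was at 33.6, 25.8 and 31.7 FPKM in HI and at 21.9, 23.4 and 28.9 FPKM in sham. HI 2 lay below sham 3, and the difference was 0.29 ± 0.12 with an adjusted p of 0.734 in limma.

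None of the other lineage factors, Olig1, Sox8 and Nkx2-2, passed the test. Olig1 was at 87.8, 71.7 and 86.7 FPKM in HI and at 62.9, 66.1 and 87.3 FPKM in sham, where sham 3 was level with HI 1. Sox8, a relative of Sox10, was at 16.01, 11.8 and 14.7 FPKM in HI and at 11.8, 13.2 and 13.5 FPKM in sham. Nkx2-2, which acts at the onset of differentiation, was at 3.61, 4.12 and 3.70 FPKM in HI and at 3.22, 4.604 and 5.12 FPKM in sham. Its difference was -0.13 ± 0.14, and HI 1 was not its highest library.

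**Figure D3:**
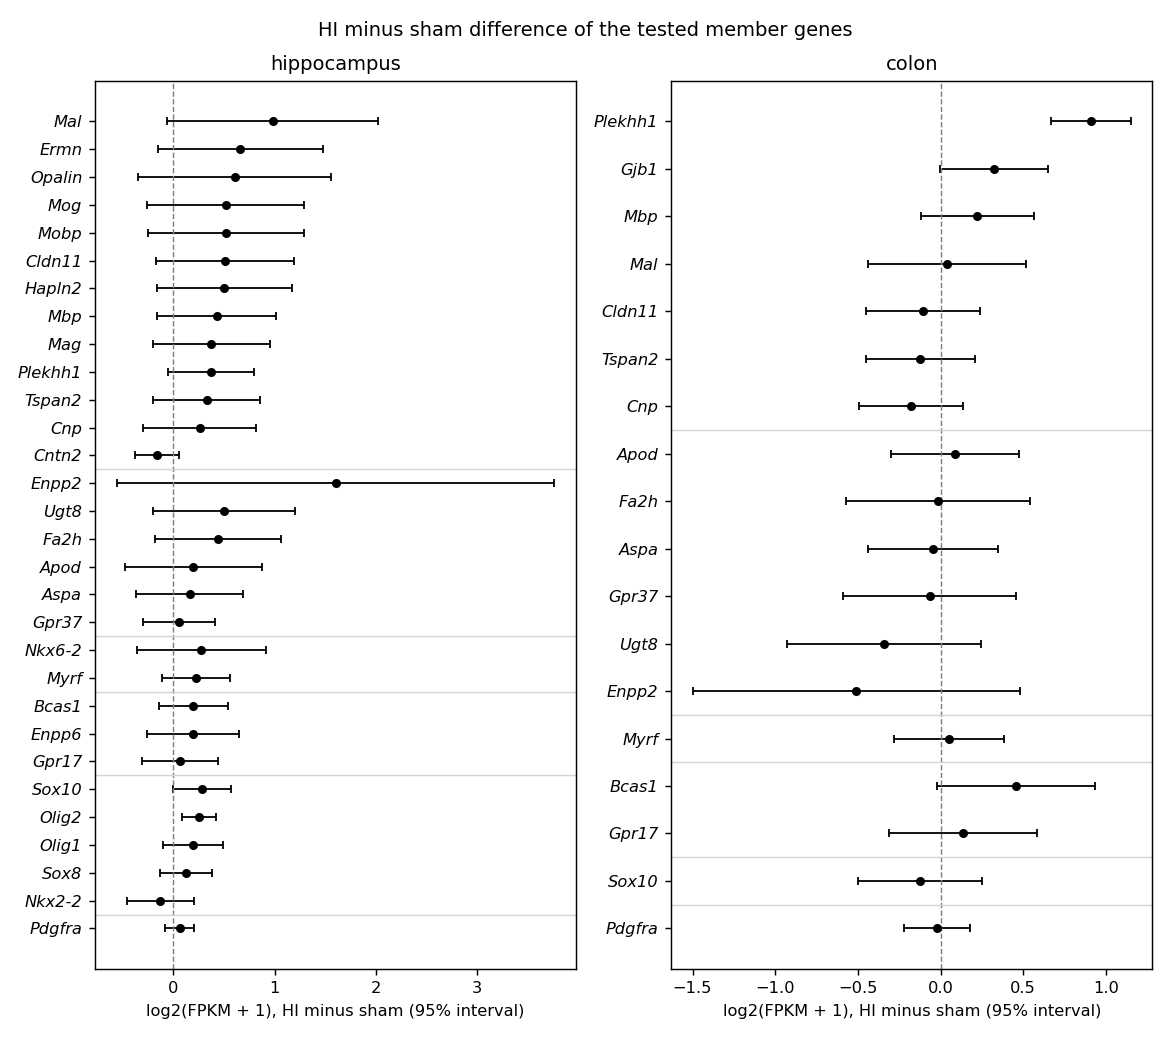
Difference between HI and sham on the log2(FPKM + 1) scale for each member tested, with its 95% interval, by role and tissue. In the hippocampus 28 of 30 lie above 0 with intervals that mostly cross it; in the colon Plekhh1 at 0.91 stands clear of the others.

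Mature and precursor genes were set against each other library by library. The score was the mean log2(FPKM + 1) of 22 mature members minus that of 9 precursor and committed members. It was 0.45, -0.26 and 0.18 in HI 1 to HI 3 and -0.23, -0.37 and 0.09 in sham 1 to sham 3. The HI mean was 0.12 ± 0.36 and the sham mean -0.17 ± 0.23 (SD, n = 3 each). The difference of 0.29 is smaller than the SD in HI, and it was 0.13 without HI 1. No test was run on this score.

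Centred on each gene's own mean, the median mature gene stood at 0.60, -0.35 and 0.31 log2 units in HI 1 to HI 3 and at -0.35, -0.47 and 0.25 in sham 1 to sham 3. The median precursor gene stood at 0.24, -0.09 and 0.14 in HI and at -0.20, -0.12 and 0.08 in sham. The sign of each library was thus the same in both sets, and the size was smaller in the precursor set. HI 2 stood beside sham 1 and sham 2, and sham 3 beside HI 3.

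**Figure D4:**
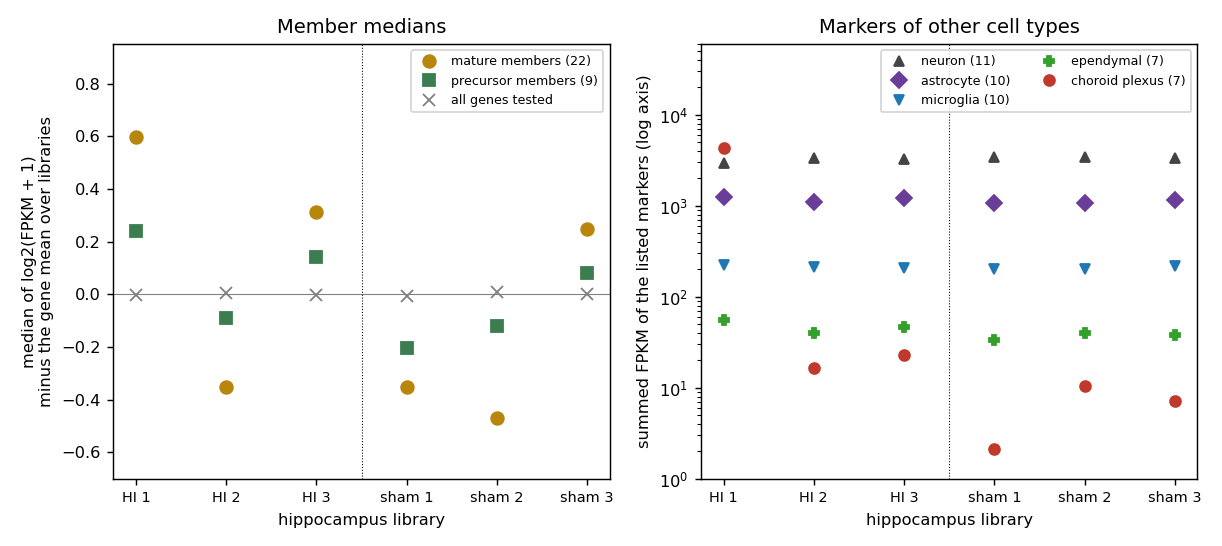
Left, the median centred log2(FPKM + 1) of 22 mature members, 9 precursor members and all genes tested in each hippocampus library; right, the summed FPKM of markers of other cell types on a log axis, with HI libraries left of sham libraries in both. The mature median is 0.60 in HI 1 and -0.47 in sham 2, the precursor median stays closer to 0, and only the choroid plexus sum of HI 1, at 4352 FPKM, is far from the other libraries.

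Genes outside the lists with the profile most like the mature members were sought by the root mean square distance from the median centred profile of 19 structural and lipid members over the 6 libraries, among 1424 genes that varied enough. The 6 nearest were RGD1564883 at 0.08, Pnlip at 0.08, Rpe65 at 0.09, Rbm43 at 0.10, Alas2 at 0.11 and Slc12a2 at 0.12 log2 units. Pnlip was at 36.5, 21.9 and 33.4 FPKM in HI and at 18.8, 18.3 and 31.9 FPKM in sham, with HI 1, HI 3 and sham 3 high. Among the 1482 genes ranked with the members included, Mbp was 1st, Mag 2nd, Fa2h 4th and Tspan2 6th. Genes of the mature list that are not members came close too: Nipal4 ranked 3rd, the sphingosine phosphate receptor S1pr5 5th, the lysophosphatidic acid receptor Lpar1 10th and the connexin gene Gjc3 16th. The members helped define the profile, so their own ranks are a description.

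Other genes of the pathway were followed from lists chosen by function. Of 34 further mature oligodendrocyte genes tested in the hippocampus, 0 passed in either direction; 30 were higher in HI by mean, with a median difference of 0.18. Lpar1 was at 18.3, 9.58 and 15.9 FPKM in HI and at 8.09, 7.30 and 12.7 FPKM in sham, again with HI 2 low and sham 3 high. Cryab, a small heat shock protein, was at 12.4, 10.2 and 11.6 FPKM in HI and at 9.82, 8.25 and 8.86 FPKM in sham. Its groups did not overlap, as for 6.4% of all genes in that direction, and its difference was 0.31 ± 0.09 with an adjusted p of 0.684 in limma. Cryab was named for having the smallest p of the 34, so the lack of overlap is tied to that choice. Il33, a cytokine that oligodendrocytes and astrocytes hold in the nucleus, differed by 0.18 ± 0.07.

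Of 16 further genes of the committed stage, 15 were higher in HI by mean with a median of 0.13, and of 18 further precursor genes 10 were, with a median of 0.01. In both lists 0 passed. Bmp4, a signal that holds back oligodendrocyte maturation, was at 18.03, 9.61 and 9.82 FPKM in HI and at 10.1, 7.75 and 6.90 FPKM in sham. HI 1 was the highest, sham 1 lay above HI 2 and HI 3, and the difference of 0.50 ± 0.23 did not pass. Among precursor genes the smallest p was that of Sox11, with a difference of 0.18 ± 0.09.

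Sterol synthesis, which supplies the cholesterol of myelin, split evenly, with 10 of 20 genes higher and 10 lower in HI by mean and a median of -0.0018. Idi1, an isomerase of that pathway, was at 36.3, 38.0 and 37.1 FPKM in HI and at 31.7, 33.01 and 33.8 FPKM in sham. Its groups did not overlap, as for 6.4% of all genes in that direction, and the difference of 0.17 ± 0.06 did not pass. Idi1 was named for having the smallest p of the 20, so the lack of overlap is tied to that choice. Sphingolipid genes were higher by mean in 10 of 12, with a median of 0.04 and Cers2, a ceramide synthase, at 0.31 ± 0.15. In both lists 0 genes passed.

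Signals that act on the lineage were higher in HI by mean for 10 of 19 and 0 passed. Fgf2, a growth factor for precursors, was at 2.37, 1.28 and 1.79 FPKM in HI and at 0.932, 1.01 and 0.785 FPKM in sham. The neuregulin receptor gene Erbb3 was at 3.16, 2.52 and 3.25 FPKM in HI and at 1.99, 1.75 and 2.45 FPKM in sham. Hes5, a Notch target that delays differentiation, was at 12.5, 14.3 and 13.9 FPKM in HI and at 16.2, 20.7 and 15.2 FPKM in sham. In all 3 the groups did not overlap, Fgf2 and Erbb3 lying higher and Hes5 lower in HI. Over all genes tested, 6.4% lay higher and 6.81% lower without overlap. The 3 genes were named for having the smallest p of the 19, so the lack of overlap is tied to that choice. Their differences of 0.55 ± 0.16, 0.38 ± 0.13 and -0.32 ± 0.11 had adjusted p of 0.679, 0.716 and 0.716 in limma.

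Axonal partners of myelin were higher by mean for 7 of 11 genes, and 0 passed. Nfasc, the neurofascin gene, whose products anchor the paranodal junction, was at 71.1, 48.6 and 64.5 FPKM in HI and at 48.5, 50.8 and 55.2 FPKM in sham, a difference of 0.23 ± 0.13. Cntnap1, the axonal side of that junction, differed by -0.13 ± 0.08. The libraries high in Mbp were high in Nfasc as well, which both neurons and oligodendrocytes make.

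In the colon the set of listed members differed. Not among its listed genes were Mobp, Mog, Mag, Ermn, Opalin, Hapln2, Cntn2, Olig1, Olig2, Sox8 and Nkx6-2. Nearly all listed genes of either table had a group mean of at least 0.5 FPKM in 1 group or more, so the level of an unlisted gene was not analysed here. The 20 listed members held the lineage factors Sox10 and Nkx2-2, the receptor Pdgfra and all 6 genes of the lipid and metabolic group. The tables were normalized separately, so a level of 1 tissue is set beside the other only as a description.

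Some of the myelin genes were low there and others were not. Mbp was at 3.84, 4.05 and 4.205 FPKM in HI and at 2.94, 4.27 and 2.86 FPKM in sham, with overlapping groups. Mal, Cldn11, Apod, Gpr17 and Myrf had means between 1.00 and 1.64 FPKM over the 6 libraries. Nkx2-2 and Enpp6 did not reach the filter and were not tested. The most abundant members of the colon were Bcas1, Plekhh1, Tspan2, Pdgfra and Cnp, with means of 50.1, 31.8, 29.4, 26.1 and 22.8 FPKM, followed by Fa2h at 19.3 and Gjb1 at 17.8 FPKM.

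**Figure D5:**
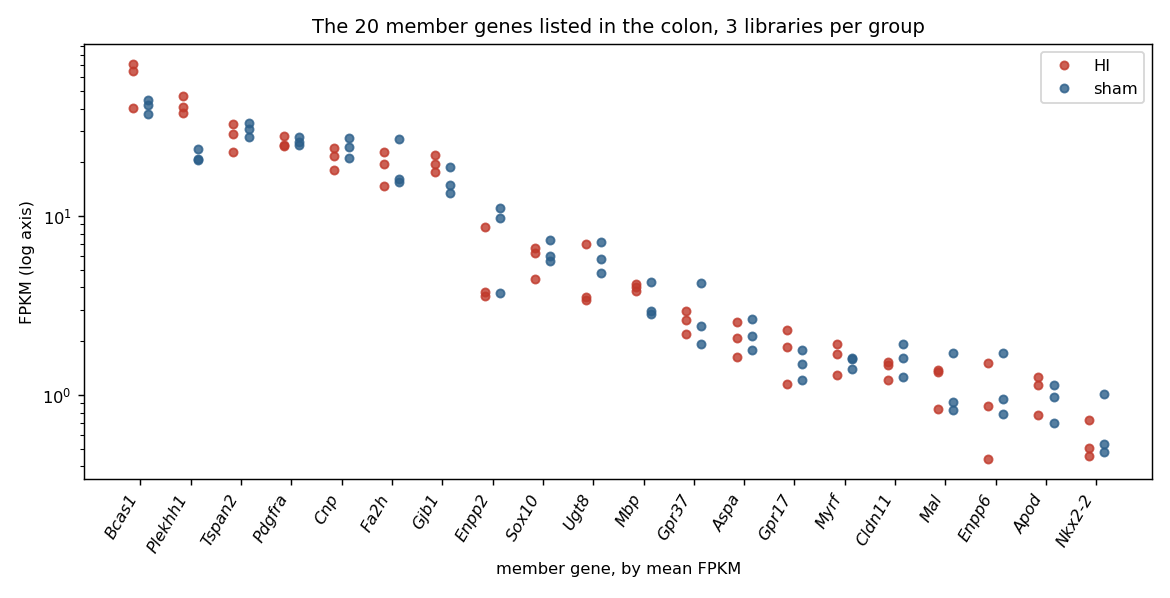
FPKM of the 20 members listed in the colon; each point is 1 library, with HI and sham told apart in the legend, and the axis is logarithmic. Bcas1 and Plekhh1 are the most abundant, and the HI points of Plekhh1, at 37.7 to 47.0 FPKM, lie above its sham points, at 20.8 to 23.7 FPKM.

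Sox10, the factor that enteric glia share with oligodendrocytes, was at 6.61, 4.44 and 6.25 FPKM in HI and at 5.64, 7.35 and 6.003 FPKM in sham. The groups overlapped, and the difference was -0.12 ± 0.16. S100b, a calcium-binding protein of enteric glia, was at 13.9, 9.07 and 12.4 FPKM in HI and at 10.1, 10.6 and 7.30 FPKM in sham, and Gfap at 1.32, 2.36 and 1.199 FPKM in HI and at 1.40, 1.097 and 2.81 FPKM in sham. Of 20 genes of enteric and Schwann glia, 17 were listed, and their summed level was 257, 277 and 265 FPKM in HI and 209, 227 and 243 FPKM in sham. Of the 15 tested, 8 were higher in HI and 0 passed. Pmp22, a Schwann cell myelin protein that gut epithelium and mesenchyme also make, was at 128, 151 and 132 FPKM in HI and at 92.6, 104 and 119 FPKM in sham and had the largest share of that sum. All 3 HI sums lay above all 3 sham sums, without a test. By mean 9 of the 17 listed genes were higher in HI. The libraries also differed in position along the gut, as given below, and its part in these sums was not tested.

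Among the 18 colon members tested, 0 passed an adjusted p of 0.05 in limma, where 0.0436% of all 13753 genes did. At an unadjusted p under 0.05 there was 1, higher in HI, against a background of 11.1% in either direction, 4.6% higher and 6.55% lower. By mean 8 were higher in HI and 10 lower, and 40.9% of all genes were higher. The members' median difference was -0.02 and that of all genes -0.04.

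The 1 member was Plekhh1, which lies at chromosome 6 from 102215603 to 102262417 on the plus strand in the deposited table, for which no source names a build. It was at 40.8, 47.0 and 37.7 FPKM in HI, against 20.9, 20.8 and 23.7 FPKM in sham 1, sham 3a and sham 3b. The lowest HI library was above the highest sham library, as for 5.63% of all genes in that direction. The HI mean was 41.8 ± 4.75 FPKM and the sham mean 21.8 ± 1.66 FPKM (SD, n = 3 each). The difference was 0.91 ± 0.10 (95% interval 0.67 to 1.15) with an adjusted p of 0.0671 in limma, just short of the threshold. Without sham 3b the adjusted p was 0.0472, and over all alternatives it lay between 0.0472 and 0.519.

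The colon libraries also differed in the position along the gut that Hox genes mark. A Hox score was -0.75, 1.58 and 2.03 in HI 1 to HI 3 and -2.21, -2.71 and 0.30 in sham 1, sham 3a and sham 3b. Hoxb13, the most distal of these genes, was at 6.70, 41.4 and 63.0 FPKM in HI and at 0.466 FPKM in sham 1, listed at 0 in sham 3a and at 11.7 FPKM in sham 3b. With that score as a covariate, added after seeing the data, the difference of Plekhh1 was 0.82 with an adjusted p of 0.519 in limma.

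Bcas1, which colon epithelium also makes, was at 40.2, 64.8 and 71.2 FPKM in HI and at 42.0, 37.4 and 44.8 FPKM in sham. HI 1 lay within the sham range, and HI 2 and HI 3 above it. The difference of 0.46 ± 0.20 did not pass, and it was 0.03 with the Hox score as a covariate. Gjb1, which gut epithelium uses too, was at 19.6, 22.1 and 17.7 FPKM in HI and at 14.9, 13.4 and 18.9 FPKM in sham, a difference of 0.32 ± 0.14. Pdgfra, in the gut a receptor of fibroblasts, was as steady as in the hippocampus, at 24.9, 28.1 and 24.6 FPKM in HI and at 24.9, 25.9 and 27.9 FPKM in sham. Cnp, Tspan2 and Fa2h differed by -0.18 ± 0.13, -0.12 ± 0.14 and -0.01 ± 0.24.

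Of the other lists in the colon, 0 genes passed in any. Anln, which binds actin in dividing cells and also marks myelin-forming oligodendrocytes, was at 5.81, 6.06 and 5.37 FPKM in HI, against 11.8, 11.3 and 10.0 FPKM in sham. All HI libraries lay below all sham libraries, as for 10.3% of all genes in that direction, and the difference of -0.84 ± 0.10 had an adjusted p of 0.0734 in limma. Anln was named for having the smallest p of its list, so the lack of overlap is tied to that choice. Markers of dividing cells summed to 270, 284 and 268 FPKM in HI and to 359, 343 and 336 FPKM in sham, and their part in Anln was not tested. Pllp, plasmolipin of myelin and of epithelium, was at 53.0, 61.9 and 73.5 FPKM in HI and at 25.1, 21.0 and 50.9 FPKM in sham, nearly in the order of the Hox score. Sterol genes were lower in HI for 14 of 20 by mean, and further precursor genes for 8 of 9, where 59.1% of all genes tested were lower. Sphingolipid genes were higher for 7 of 12 and lower for 5.

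The 2 tissues were also compared directly, by the HI change in colon minus the HI change in hippocampus. Of the 17 members tested, 0 differed past an adjusted p of 0.05 in limma, where 0.0169% of 11861 genes did, and 1 had an unadjusted p under 0.05, against a background of 9.04%. It was Plekhh1, with 0.54 ± 0.23 and an adjusted p of 0.521. For Mbp the change in colon minus that in hippocampus was -0.21 ± 0.32, and for Mal -0.95 ± 0.56.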

How the data were processed

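RNA was sequenced from rat hippocampus and colon. Per the labels' protocols, total RNA was taken up in TRIzol, mRNA purified and fragmented, and libraries amplified by PCR. No source read here names the aligner, genome build or annotation. Per the file headers, the authors deposited 1 table per tissue with FPKM per library, a p-value, a fold change as a linear ratio and a log2 fold change. The deposited log2 fold change was recomputed from the FPKM as a difference of mean log2(FPKM + 1) and matched to 0.0001 for all but 1 gene; the p-values, ratios and log2 columns were not used for any result. Low values showed no whole-read steps (at most 2.41% of genes at the most common ratio), and listed FPKM summed to 452291 to 466432 per hippocampus library and 495505 to 509775 per colon library.

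From FPKM, limma 3.58.1 in R 4.3.3 (eBayes with a trend) was run on log2(FPKM + 1) within each tissue, leaving out genes that reached 1 FPKM in fewer than 3 libraries, with Benjamini-Hochberg adjustment over all genes tested and a threshold of 0.05. A fold change on that scale understates low genes. The change in colon minus that in hippocampus was fitted over 12 libraries. Tables were made with Python 3.11.15 and pandas 2.3.3, and limma was tested on simulated data.

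The plan named all members, up to 3 genes of each pathway list with the smallest p, and the 6 nearest profiles. The members and lists were chosen with earlier results of these data known. Same-numbered hippocampus libraries were not paired, since none of their correlations exceeded 0.1. Alternatives were another pseudocount, no filter, another scaling, a replicate block, a joint fit, each library left out, and 2 covariates chosen after seeing the data.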

Additional observations from a re-analysis of the deposited data

How the results depend on the processing

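The count of hippocampus genes past the threshold was 1; it was 0 with a pseudocount of 0.1, 3 with the choroid plexus covariate and 0 to 5 as each library was left out. No member was among them in any of the 12 alternatives, and the members' median stayed above 0, from 0.18 to 0.54 as libraries were left out. The colon count was 6; it was 16 in 1 fit over the 12 libraries, 1 with the Hox covariate and 2 to 38 as libraries were left out, 38 of them without sham 3b. Colon members past the threshold were 0 to 1 as libraries were left out, and their median of -0.02 ranged from -0.093 without sham 1 to 0.0499 without sham 3b. The count for the difference between tissues was 2; it was 1 with a pseudocount of 0.1, 1 with median-ratio scaling and 1 to 21 as libraries were left out, 21 of them without colon sham 3b. The cause of these shifts was not tested. The mature minus precursor score kept its sign, from 0.13 to 0.48. Of 344 values of single hippocampus members, 12 had the other sign, and of 191 in the colon 24 had.

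With a replicate block in the hippocampus, 0 genes passed, and the members' median was 0.28; same-numbered libraries correlated at -0.05, 0.08 and -0.03 over 13181 genes, and the highest pair was HI 1 with sham 3 at 0.14. In the colon no paired analysis was possible because 2 sham columns carry the same number. With 3 libraries a group, an interval such as that of Mal covers both no difference and a large one. Depth is unknown, and genes near 1 FPKM are compressed by the pseudocount.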
